A study of Mus musculus with 2 samples.

Results

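Interferon response genes were compared between 2 mouse osteosarcoma cell lines, the highly metastatic LM8 line and the Dunn line from which it was derived. The genes were 53 sensors, signalling factors and antiviral effectors chosen by name, without the interferon-induced GTPases that act on vacuoles. Of the 53, 50 had at least 1 probe set annotated to that gene alone, out of 18193 genes with such a probe set, and together they had 93 probe sets. LM8 is labelled as a subline with a highly metastatic phenotype and Dunn as the parental line with a non-metastatic phenotype. Both lines grew untreated in the same serum-containing medium, so no interferon was added to either. RNA of each line was hybridised to 1 Affymetrix mouse genome array with 45101 probe sets, 1 culture per line as far as the labels say. Every difference below therefore holds for these 2 arrays and has no replicate check.

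Interferons are secreted proteins that warn cells of infection. Cytosolic and endosomal sensors of foreign RNA switch on interferon genes, and secreted type I interferon binds the receptor chains Ifnar1 and Ifnar2, whose kinases Jak1 and Tyk2 activate Stat2. A complex that holds Stat2 and Irf9 then binds the interferon-stimulated response element, a short motif upstream of many antiviral genes. Interferon-gamma uses Ifngr1, Ifngr2, Jak1 and Jak2, and acts through a second motif, the gamma-activated sequence. Some tumour cells keep part of this programme running without added interferon.

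Signals are linear MAS5 intensities. The floor of an array was its median over 45037 non-control probe sets, 18.96 for LM8 and 21.06 for Dunn. A signal under the floor was raised to it, and a probe set counted as measured if it lay above the floor on at least 1 array. Of 78 probe sets for odorant and vomeronasal receptors, which most tissues do not express, 2.56% lay above the floor in LM8 and 10.3% in Dunn. Differences are log2 of LM8 over Dunn, a gene takes its brightest measured probe set, and a gene is counted as higher or lower when the lines are at least 2-fold apart. Where 1 of the arrays was at its floor, the fold is a lower bound and is written as at least N-fold. Of 10 osteoblast lineage genes, 8 were measured, 1 was at least 2-fold higher in LM8 (Omd, 5.01-fold), 2 were lower (Ibsp, 2.48-fold, and Pth1r, 2.26-fold) and 5 lay between, among them Alpl (1739 in LM8, 1266 in Dunn) and Sp7 (743 in LM8, 687 in Dunn). Dmp1 was under the floor on both arrays.

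LM8 exceeded Dunn by at least 2-fold for 12 of the 47 measured genes (25.5%) and was at least 2-fold below it for 3 (6.38%), with 32 in between. Over all 11830 measured genes, 6.51% were at least 2-fold higher and 8.84% at least 2-fold lower. The log2 ratio was above 0 for 36 members (76.6%, against 44.7% of all measured genes) and below 0 for 10, and the remaining member, Dhx58, had no fold. Tlr3 and Dhx58 were measured through 1 array only, and the other 45 lay above the floor on both. The median log2 ratio was 0.36 for the members and -0.08 for all measured genes. The higher members were Rtp4, Usp18, Ifitm3, Ddx58, Ifih1, Parp9, Oasl1, Irf7, Ifitm1, Ifit1, Oasl2 and Rsad2, and the lower ones were Tlr3, Ifngr2 and Bst2. Most differences were of modest size, and only Rtp4, Usp18 and Tlr3 were at least 3-fold apart.

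**Figure D1:**
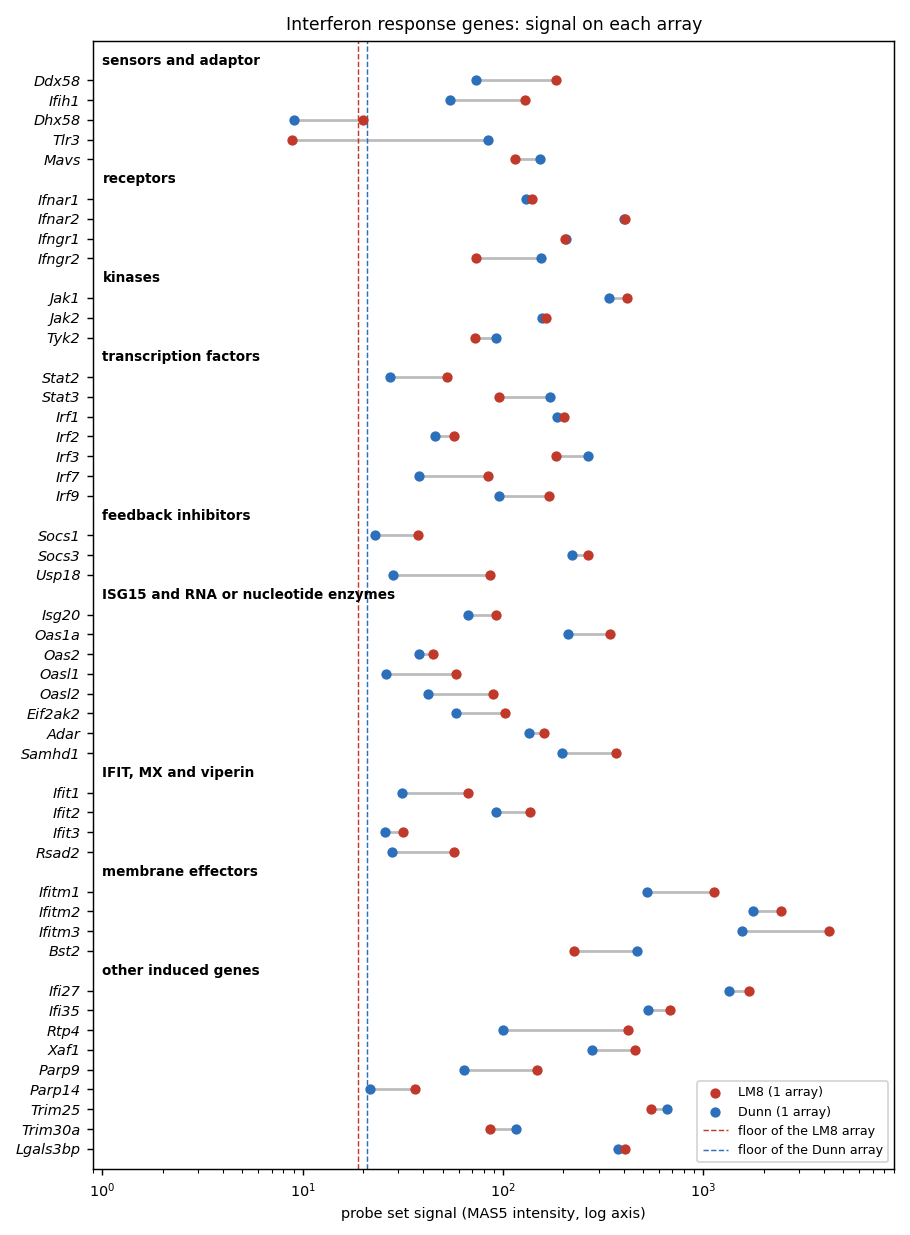
Signal of each measured interferon response gene on its brightest measured probe set (log axis, MAS5 intensity), with the LM8 array in red, the Dunn array in blue and dashed lines at the array floors of 18.96 and 21.06; genes are ordered by role. LM8 lies to the right of Dunn for most effectors, whereas the pairs of Ifnar1, Ifnar2, Ifngr1 and Jak2 nearly coincide.

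The counts of higher and lower genes moved with the scaling. Higher genes made up 42.4% of all genes 2-fold apart, against 56.9% with array medians set equal and 65.9% with the hybridisation controls set equal. These scalings moved the median of all genes to 0.07 and 0.16. Both add 1 constant to every log2 ratio, so the distance of 0.44 between the members' median and that of all genes is the same by construction. The members counted were 14 higher and 1 lower with equal medians, against 8.66% and 6.55% of all genes. With equal hybridisation controls they were 16 higher and 1 lower, against 10.5% and 5.40% of all genes.

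The sensors of viral RNA went in different directions. Ddx58, which encodes the cytosolic RNA sensor RIG-I, had signals of 183 in LM8 and 73.5 in Dunn, a 2.49-fold difference. A second Ddx58 probe set read 50.9 in LM8 and 18.0, under its floor, in Dunn, which made it at least 2.42-fold higher in LM8. Both measured probe sets of Ddx58 therefore passed 2-fold in the same direction. Ifih1, the gene of the related sensor MDA5, had signals of 129 in LM8 and 54.2 in Dunn, 2.38-fold higher in LM8. Ddx58 and Ifih1 signal through the mitochondrial adaptor Mavs, whose 2 probe sets were slightly lower in LM8, with log2 ratios of -0.41 (115 in LM8, 153 in Dunn) and -0.26.

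Tlr3, the endosomal receptor for viral RNA, was lower in LM8. Its brighter probe set read 8.86 in LM8, below the floor, and 84.2 in Dunn, at least 4.44-fold lower in LM8. The other probe set read 24.0 in LM8 and 32.4 in Dunn, a log2 ratio of -0.43 that did not reach 2-fold. The direction of Tlr3 was thus shared by both probe sets while the size was not. Dhx58, which encodes LGP2, a regulator of the other RNA sensors, reached 19.9 in LM8, just above the floor, and 9.06 in Dunn, under the floor, and no fold could be given. Zbp1, a sensor of Z-form nucleic acids, was under the floor on both arrays.

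Receptor chains and their kinases differed little. Ifnar1 had signals of 140 in LM8 and 131 in Dunn, Ifnar2 had 407 in LM8 and 402 in Dunn, and Ifngr1 had 205 in LM8 and 207 in Dunn. These 3 chains, which bind type I interferon or interferon-gamma, had log2 ratios from -0.01 to 0.10 on their brightest probe sets. Ifngr2, the second chain of the interferon-gamma receptor, had signals of 73.4 in LM8 and 155 in Dunn, 2.11-fold lower in LM8. Its other probe set read 66.1 in LM8 and 79.6 in Dunn, a log2 ratio of -0.27, so the 2-fold call rests on 1 of 2 probe sets, and with array medians or hybridisation controls set equal the brighter one was also under 2-fold. In the gene order of the mouse genome, Ifnar2, Il10rb, Ifnar1 and Ifngr2 are neighbours on chromosome 16, and Il10rb, a receptor chain for interleukin-10 and interferon-lambda, had log2 ratios of -0.63 and -0.02 on its 2 measured probe sets.

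Of the kinases, Jak1 had a log2 ratio of 0.30 (417 in LM8, 337 in Dunn), Jak2 of 0.08 (165 in LM8, 156 in Dunn) and Tyk2 of -0.36 (72.1 in LM8, 92.4 in Dunn). The 3 probe sets of Jak1 ran from 0.18 to 0.61. The second probe set of Jak2 was higher in LM8 by 0.86 (183 in LM8, 101 in Dunn). None of the 3 kinases was 2-fold apart on any measured probe set.

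Among the 7 transcription factors, Stat2, Irf9 and Irf7 were on the higher side in LM8, while Stat3 and Irf3 were lower. Irf7, the factor that amplifies interferon production after infection, had signals of 84.4 in LM8 and 38.2 in Dunn, 2.21-fold higher in LM8. Stat2 had signals of 52.7 in LM8 and 27.4 in Dunn, a log2 ratio of 0.94 just short of 2-fold. Irf9, which gives the complex its DNA contact, had signals of 170 in LM8 and 95.3 in Dunn, a log2 ratio of 0.83. Irf7 was the single factor called, and Stat2 passed 2-fold under 4 of its 8 alternatives of processing.

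Stat3, which carries signals of interleukin-6 type cytokines more than of interferon, was lower in LM8 on all 4 probe sets. The brightest read 95.0 in LM8 and 172 in Dunn, a log2 ratio of -0.86, and another with LM8 under its floor was at least 2.78-fold lower. Irf3, which is activated by phosphorylation downstream of Mavs, had log2 ratios of -0.53 (184 in LM8, 267 in Dunn) and -0.73 on its 2 measured probe sets. Irf1, an interferon-gamma target, and its relative Irf2, which opposes it at many promoters, had log2 ratios of 0.11 (201 in LM8, 186 in Dunn) and 0.31. The factors thus spread from -0.86 to 1.14, with a median of 0.31.

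Feedback inhibitors were all on the higher side. Usp18, a protease that strips Isg15 from proteins and also blocks signalling at Ifnar2, had signals of 86.2 in LM8 and 28.2 in Dunn, 3.06-fold higher in LM8. Socs1, an inhibitor of Jak kinases, had signals of 37.7 in LM8 and 23.0 in Dunn, a log2 ratio of 0.71. Socs3, which mainly restrains receptors that use Stat3, had 3 probe sets with log2 ratios between 0.26 and 0.45. Usp18 was the single feedback gene that reached 2-fold.

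**Figure D2:**
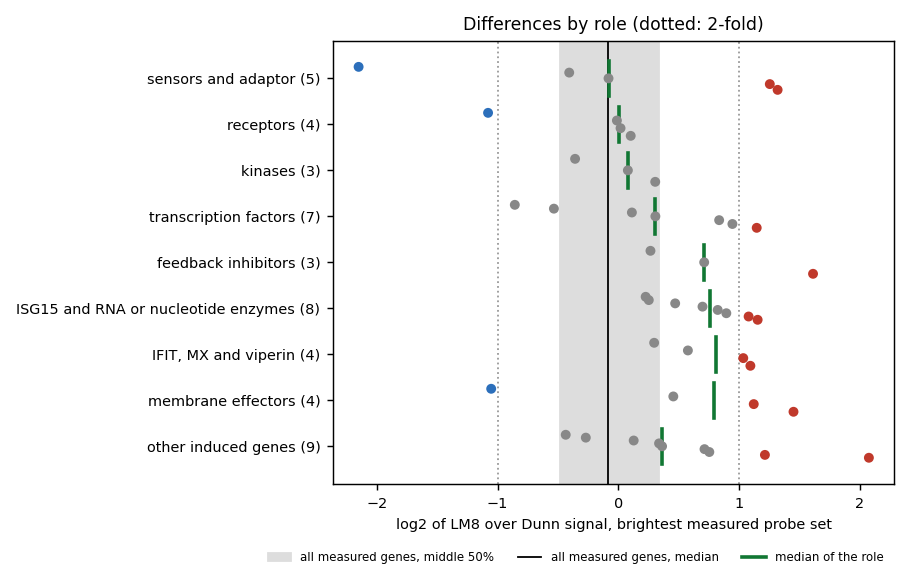
Log2 of LM8 over Dunn signal for each of the 47 measured members by role, with the number of members in brackets, red and blue points for members at least 2-fold higher and lower, green lines for role medians, and the middle 50% and median of all measured genes as a grey band and black line. Sensors, receptors and kinases have medians of -0.08, 0.00 and 0.08, and the feedback inhibitors and the next 3 effector roles have medians from 0.71 to 0.80.

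Of the effectors and other induced genes 25 were measured. LM8 exceeded Dunn by 2-fold or more for 8 of the 25, against 6.51% of all measured genes. It was at least 2-fold below Dunn for 1, against 8.84% of all measured genes, and 16 were less than 2-fold apart. The median log2 ratio of the 25 was 0.70. The log2 ratio was above 0 for 22 of the 25, against 44.7% of all measured genes. Rtp4, an interferon-induced gene first known as a chaperone that brings receptors to the cell surface, differed most among the higher members. It had signals of 422 in LM8 and 100.2 in Dunn, 4.21-fold higher in LM8. Its second probe set was under the floor on both arrays.

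The Ifitm genes, whose membrane proteins block entry of enveloped viruses, were higher in LM8 at high signals. Ifitm3 had signals of 4248 in LM8 and 1555 in Dunn, 2.73-fold higher in LM8. Ifitm1 had signals of 1137 in LM8 and 523 in Dunn, 2.17-fold higher. Ifitm2 had signals of 2437 in LM8 and 1779 in Dunn, a log2 ratio of 0.45. The 3 genes are neighbours on chromosome 7 and are related in sequence, so their probe sets may share signal. Ifitm1, Ifitm3 and Rtp4 were the members that stayed at least 2-fold higher under all 9 alternatives of scaling, floor and probe set choice, and Usp18 did so under the 8 in which it was measured.

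Bst2 was the one effector at least 2-fold lower. It encodes tetherin, a membrane protein that holds budding virus particles on the cell, and it had signals of 226 in LM8 and 469 in Dunn, 2.08-fold lower in LM8. With array medians or hybridisation controls set equal its log2 ratio was between -1 and 0, so that call depends on the scaling. Plasmacytoid dendritic cells and macrophages also express Bst2. Of 12 macrophage and dendritic cell markers 7 were measured, and 2 of the 7 were at least 2-fold lower in LM8 (Csf1r and Lyz2), against 8.84% of all measured genes. The other 5 lay between with log2 ratios below 0, and the summed signal of the 7 was 107 in LM8 and 289 in Dunn. Ptprc, Itgam, Aif1, Mpeg1 and Siglec1 were under the floor on both arrays. Of the 7 measured markers, 5 (Cd68, Adgre1, Lyz2, Tyrobp and Fcgr1) were under the floor in LM8 and counted as measured through Dunn alone. The negative ratios of these 5 and their lower LM8 signals were therefore fixed by the rule for measured probe sets. In Dunn, Cd68, Adgre1, Tyrobp and Fcgr1 read 26.2, 23.1, 26.3 and 29.2, near its floor of 21.06. Csf1r, 1 of the 2 past 2-fold, also had a probe set at 0.48. A lower signal was not particular to these markers. Of 2 endothelial, 2 lymphoid and 1 epithelial markers measured, the endothelial Vwf was 2.26-fold lower (67.3 in LM8, 152 in Dunn) and the others lay between. Of the other plasmacytoid dendritic cell genes listed, Siglech read 15.7 in LM8 and 23.5 in Dunn, and Tcf4 262 in LM8 and 157 in Dunn. The part of such cells in the Bst2 and Tlr3 signals was not tested, and in bulk RNA fewer cells of a type and less RNA per cell cannot be told apart.

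Enzymes that act on RNA or nucleotides were on the higher side throughout on their brightest probe sets, with a median of 0.76. Of the 8 measured, 2 were at least 2-fold higher, against 6.51% of all measured genes, and none was at least 2-fold lower, against 8.84%. Oasl1, which in the mouse restrains translation of Irf7, had signals of 58.2 in LM8 and 26.2 in Dunn, 2.22-fold higher in LM8. Its neighbour Oasl2, a mouse oligoadenylate synthetase, had signals of 88.9 in LM8 and 42.1 in Dunn, 2.11-fold higher. Oas1a, a synthetase of the messenger that activates RNase L, had signals of 342 in LM8 and 211 in Dunn, a log2 ratio of 0.70, and Oas2 had 44.7 in LM8 and 38.2 in Dunn. The 4 genes had log2 ratios from 0.23 to 1.15, and the Oas genes are related in sequence, so their probe sets may share signal.

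Eif2ak2, which encodes the kinase PKR that halts translation on sensing viral RNA, had 3 probe sets with log2 ratios of 0.52, 0.82 and 1.13. The brightest read 103 in LM8 and 58.2 in Dunn. Adar, an enzyme that edits adenosine in RNA, had 3 probe sets between 0.25 and 0.54, and Isg20, an RNA exonuclease gene, had a log2 ratio of 0.47. All these probe sets were above the floor on both arrays and pointed to LM8.

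Samhd1, an enzyme that degrades the nucleotides viruses need for DNA synthesis, had probe sets that opposed each other. The brightest read 365 in LM8 and 196 in Dunn, a log2 ratio of 0.89. Another 3 read 132, 93.2 and 84.0 in LM8 and 195, 174 and 192 in Dunn, with log2 ratios of -0.56, -0.90 and -1.19. A further one read 24.4 in LM8 and was under the floor in Dunn. The mean over its 5 measured probe sets was -0.31.

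**Figure D3:**
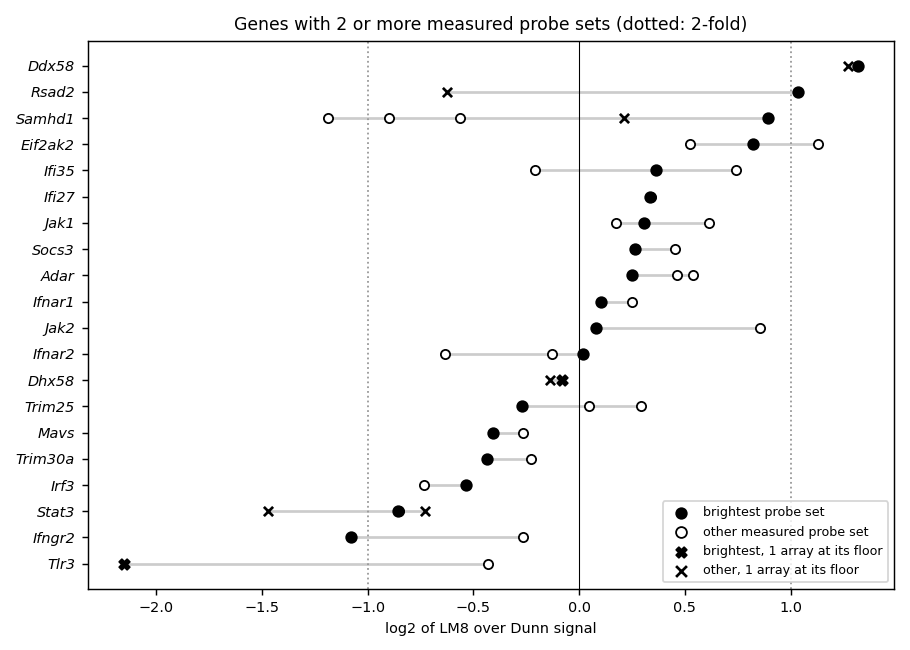
Log2 of LM8 over Dunn signal for every measured probe set of the 20 members with at least 2 of them; filled symbols are the brightest probe set, open or thin ones the others, and crosses mark values with 1 array at its floor. The probe sets of Ddx58, Eif2ak2 and Stat3 keep to 1 side of 0, whereas those of Rsad2 and Samhd1 lie on both sides.

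Probe sets of 1 gene were the sole spread at hand for a single member, and they reflect probe and isoform differences rather than replicate error. Of 20 members with at least 2 measured probe sets, 15 had all of them on 1 side of 0 and 5 did not (Rsad2, Samhd1, Ifi35, Ifnar2 and Trim25). The SD over the probe sets of a gene, in log2 ratio, had a median of 0.25 for these members and of 0.30 for 5521 genes. When all measured probe sets of a gene had to be 2-fold apart in 1 direction, 11 members were higher, against 4.36% of all genes, and 1 (Bst2) was lower, against 6.47% of all genes. Of the 15 members called on the brightest probe set, 11, Bst2 among them, had a single measured probe set, so this rule could not change their call. It could do so for the other 4, Ddx58, Rsad2, Tlr3 and Ifngr2, and of these only Ddx58 kept its call.

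The antiviral genes Ifit1, Ifit2 and Ifit3, whose proteins bind foreign RNA and stop its translation, lie close together on chromosome 19. Ifit1 had signals of 66.8 in LM8 and 31.3 in Dunn, 2.13-fold higher in LM8. Ifit2 had signals of 137 in LM8 and 92.0 in Dunn, a log2 ratio of 0.58, and Ifit3 had 31.5 in LM8 and 25.7 in Dunn, a log2 ratio of 0.30. Rsad2, the gene of viperin, which makes a chain-terminating nucleotide, read 57.0 in LM8 and 27.9 in Dunn on its brightest probe set, 2.05-fold higher in LM8. Its second measured probe set pointed the other way, with LM8 under its floor at 16.3 and Dunn at 29.3. The call of Rsad2 as higher therefore rests on 1 of 2 measured probe sets, and Mx1 and Mx2, GTPase genes that block virus replication, were under the floor on both arrays.

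Several of these genes carry the interferon-stimulated response element just upstream of their start. Its core, GAAA, any 2 bases and GAAA, was searched on both strands in the 250 bases before each RefSeq start in GRCm38.p6, for the 43 members with a promoter in the table. The core was present for 12 of 43 members (27.9%), against 3.46% of 27025 genes. The 80-base windows of the 3 members that held it and were at least 2-fold apart are printed here, since they include both a lower gene and the higher ones. Ifit1 is at chr19:34640759-34640838 on the plus strand, Rsad2 at chr12:26456528-26456607 and Bst2 at chr8:71537555-71537634, both on the minus strand. Each reads 5′ to 3′ along its gene, and capitals mark the core or its reverse complement.
Ifit1: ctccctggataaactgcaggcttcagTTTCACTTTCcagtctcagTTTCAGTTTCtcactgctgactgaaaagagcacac
Rsad2: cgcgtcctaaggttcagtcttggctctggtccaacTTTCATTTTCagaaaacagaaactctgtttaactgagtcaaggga
Bst2: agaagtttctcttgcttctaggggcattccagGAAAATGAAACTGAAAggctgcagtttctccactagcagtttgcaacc

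Ifit1, higher in LM8, held 2 separate cores, and Bst2, lower in LM8, held 2 that overlap. The core was thus found in 2 of 9 higher members with a promoter (22.2%), in 1 of 3 lower ones and in 7 of 28 lying between, counts too small to compare. The higher members Rtp4, Usp18 and Parp9 had no promoter sequence and were not searched, and Rtp4 and Usp18 had the largest folds of the higher members. Isg15 and Oas1g also held the core but had no probe set of their own. The gamma-activated sequence core, TTC, any 3 bases and GAA, was searched in the same way and was present for 10 of 43 members (23.3%), against 8.13% of 27025 genes. It was found in none of the 9 higher members, in Bst2 among the lower ones, where it overlaps the first response element core, and in 9 of 28 lying between. A match of letters is a description of these windows and shows no binding.

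**Figure D4:**
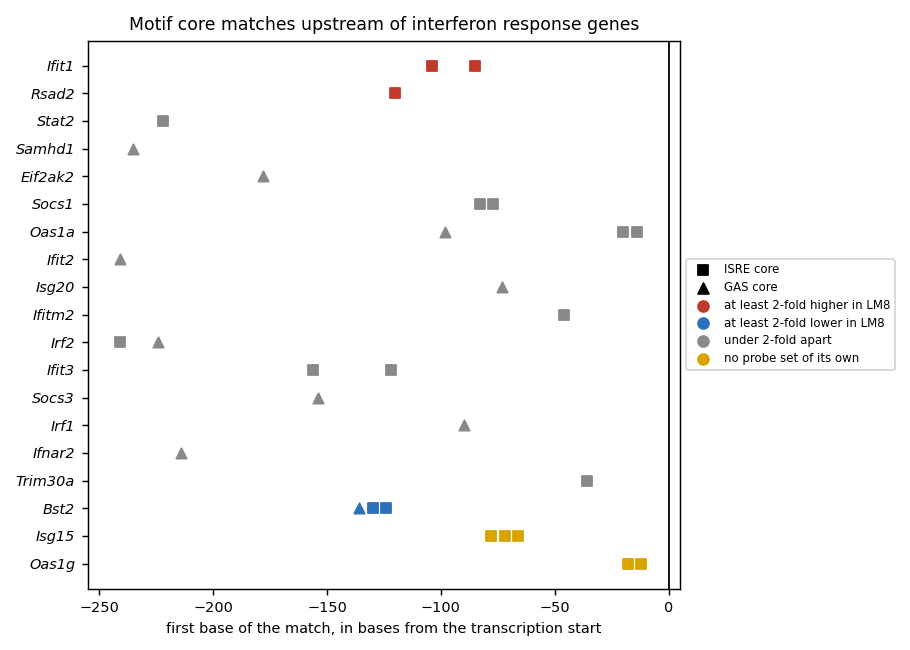
Position of each match to the interferon-stimulated response element core (squares) and the gamma-activated sequence core (triangles) in the 250 bases before the start of member genes, in bases from the start, coloured by the difference between LM8 and Dunn. Ifit1 has cores at -104 and -85, Rsad2 at -120 and Bst2 at -130 and -124; gold genes had no probe set of their own.

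The remaining induced genes were mixed, with a median of 0.36. Of 9 measured, 2 were at least 2-fold higher (22.2%), against 6.51% of all measured genes, and none was at least 2-fold lower, against 8.84%. Parp9, a protein that modifies ubiquitin together with its partner Dtx3l, had signals of 148 in LM8 and 63.9 in Dunn, 2.32-fold higher in LM8. Parp14, Dtx3l and Parp9 are neighbours on chromosome 16, and Parp14 had a log2 ratio of 0.75 (36.4 in LM8, 21.6 in Dunn) and Dtx3l one of 0.74 (123 in LM8, 73.2 in Dunn). All 3 brightest probe sets pointed to LM8, although the second Dtx3l probe set had a log2 ratio of 0.00.

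Xaf1, which antagonises an inhibitor of apoptosis, had signals of 458 in LM8 and 280 in Dunn, a log2 ratio of 0.71. Ifi27, a small interferon-induced membrane protein gene, had log2 ratios of 0.34 on both of its probe sets, the brighter reading 1698 in LM8 and 1345 in Dunn. Ifi35 had log2 ratios from -0.21 to 0.74 over 3 probe sets, and Lgals3bp, a secreted glycoprotein gene, had one of 0.13. The ubiquitin ligase gene Trim25, which acts on RIG-I, had log2 ratios from -0.27 to 0.29 over 3 probe sets, and Trim30a, a mouse gene that restrains inflammatory signalling, had -0.44 and -0.23. None of these was 2-fold apart on any measured probe set. Isg15, Oas1g and Ifi44 had no probe set annotated to them alone and were not analysed here.

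Other genes of the interferon pathway stood closer to all measured genes than the members did in the share at least 2-fold higher. Of 109 further ligands, receptors, regulators, sensors and effectors, 65 were measured, 5 were at least 2-fold higher in LM8 (7.69%), 2 were lower (3.08%) and the median log2 ratio was 0.22. The share higher is near the 6.51% of all measured genes, while the share lower is under their 8.84%. The log2 ratio was above 0 for 37 of the 65 (56.9%), against 44.7% of all measured genes. At 1.5-fold, 18 of the 65 were higher and 11 lower, against 15.3% and 20.3% of all measured genes. Mndal, a DNA-binding gene of the interferon-inducible HIN family, had signals of 226 in LM8 and 68.2 in Dunn, 3.32-fold higher in LM8 and above 2-fold on both measured probe sets. Phf11d was 3.05-fold higher (94.5 in LM8, 30.9 in Dunn) and Tdrd7, a protein of RNA granules, 2.57-fold higher (195 in LM8, 76.0 in Dunn).

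Among the sensing genes of that list, Sting1, the adaptor for cytosolic DNA sensing, read 47.0 in LM8 and was under the floor in Dunn, at least 2.23-fold higher in LM8. Tlr9, an endosomal DNA receptor, was 2.06-fold higher (44.3 in LM8, 21.5 in Dunn), with Dunn just above its floor of 21.06. Plscr1, a lipid scramblase gene, was 3.47-fold lower (56.0 in LM8, 194 in Dunn), with its other measured probe set at -1.59 in log2 ratio, and Pml, the organiser of nuclear bodies, was 2.03-fold lower on a brightest probe set whose fellows ran up to 0.21. Transcripts of interferon genes themselves were at the limit of measurement. Of 13 listed ligands, 7 were under the floor on both arrays, 4 had no probe set of their own, and Ifna1 and Ifnb1 read 24.4 and 21.7 in LM8, just above its floor, and lay under the floor in Dunn.

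Of the 12 higher members, 5 had a Dunn signal under 2 times its floor (Usp18, Irf7, Oasl1, Ifit1 and Rsad2). With the floor at the 75th percentile of each array, 32 members were measured. Of these, 3 were higher (Rtp4, Ifitm3 and Ifitm1), which is 9.38% against 5.13% of all genes. The 1 lower member was Bst2, against 5.41% of all genes lower.

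**Figure D5:**
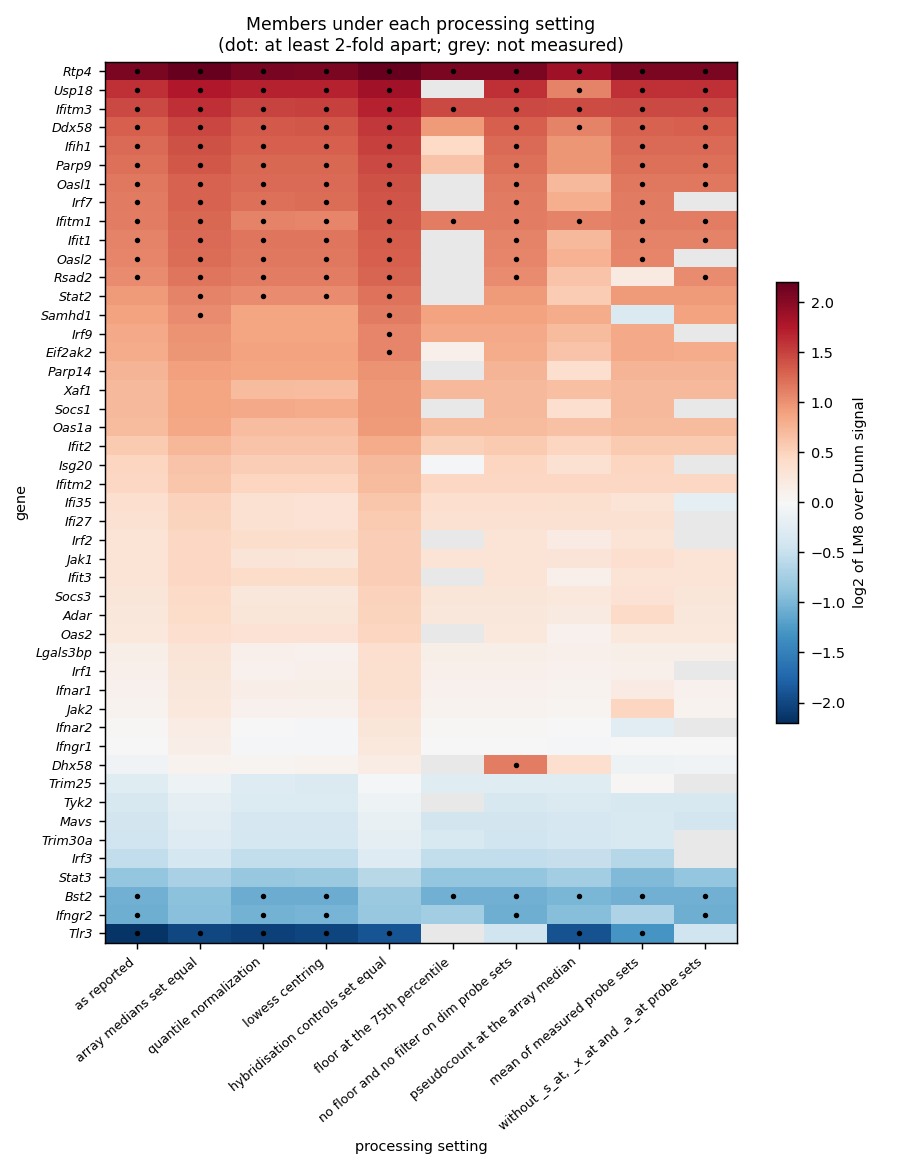
Log2 of LM8 over Dunn signal (colour) of the 47 measured members under the reported processing and 9 alternatives, with a dot where the lines are at least 2-fold apart and grey where the gene was not measured. Rtp4, Ifitm3 and Ifitm1 keep a dot in every column, while the lower members Bst2 and Ifngr2 lose theirs with array medians or hybridisation controls set equal.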

How the data were processed

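The authors deposited 1 linear intensity per probe set and array. The submitters' processing notes name MAS5 as the tool; its version and settings are not given in the sources used here. The 64 control probe sets were left out, and the other 45037 were set to a common 2% trimmed mean, which multiplied signals by 1.00 on both arrays. Gene names came from the platform annotation, updated by gene identifier against GRCm38.p6 (99.4% of 34958 probe sets with 1 symbol matched; 932 probe sets had several symbols and 9160 were unnamed). With 1 array per line there is no test and no p-value; the number of arrays limits the precision. Each member is accounted for. Of the further pathway genes, those at least 2-fold apart are named with values; the neighbours Il10rb and Dtx3l, the ligands Ifna1 and Ifnb1 and markers were named after their values were seen. Members, lists and rules were chosen with earlier results of these data known. Alternatives were 4 scalings (array medians, quantiles, lowess with span 0.3, and 12 hybridisation controls), 3 treatments of dim signals, 2 of probe sets, 1.5-fold and 3-fold rules, a rule on all probe sets, and members without floored values. The steps were tested on simulated data in which only bright genes were changed, by more than 2-fold. Recovery of differences near 2-fold, or in genes near the floor, was not tested. Promoter sequences are from RefSeq, matched by symbol for 43 members. Tools were matplotlib 3.10.9, statsmodels 0.14.6, scipy 1.17.1, pandas 2.3.3 and numpy 2.4.6 under Python 3.11.15.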

Additional observations from a re-analysis of the deposited data

How the results depend on the processing

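No paired analysis was possible because each line has 1 array. The members' median log2 ratio stayed above 0 in all alternatives run, from 0.26 with the floor at the 75th percentile to 0.61 with hybridisation controls set equal, and no called member changed sign. Against 12 higher members as reported, there were 3 with the floor at the 75th percentile (9.38%, against 5.13% of all genes). With a pseudocount at the array median there were 5 (10.0%, against 3.31%). There were 20 at 1.5-fold (42.6%, against 15.3%) and 2 at 3-fold (4.26%, against 2.49%), and these last 2 settings change the rule itself. Against 3 lower members, there was 1 with array medians set equal, 1 with hybridisation controls set equal, 1 with the floor at the 75th percentile, 1 at 3-fold and 1 when all measured probe sets had to be 2-fold apart. The shares of all genes lower in these settings were, in the same order, 6.55%, 5.40%, 5.41%, 2.84% and 6.47%. Of the 65 further pathway genes measured as reported, 5 were higher and 2 lower. There were 8 and 1 with array medians set equal, against 8.66% and 6.55% of all genes. With hybridisation controls set equal there were 11 and 1, against 10.5% and 5.40%. With the 75th percentile as floor, 32 were measured and there were 2 and 1, against 5.13% and 5.41%. With no floor and no filter on dim probe sets, 94 were measured and there were 21 and 10. In that setting 18193 genes gave 2553 higher and 3351 lower (14.0% and 18.4%). The lower count among the further pathway genes was also 1 with quantile normalization, lowess centring and a pseudocount (94 measured). It was 1 as well without probe sets ending in _s_at, _x_at or _a_at (51 measured). Of 396 values of single members under alternatives, 371 moved by less than 0.30 in log2 ratio, the typical SD over the probe sets of 1 gene, and 25 moved by more. Part of the 371 was fixed in advance. Equal medians and equal hybridisation controls each add 1 constant under 0.30 to every member. Averaging probe sets cannot change a member with 1 measured probe set. The 371 are therefore no measure of stability. Among the 25 that moved by more, Rsad2 was 0.20 and Ifngr2 -0.67 with probe sets averaged. Tlr3 was -0.43 without shared-type probe sets or without a floor, where its other probe set was used. Apart from the changes of rule and of probe sets, the cause was not tested. A higher floor or a pseudocount changes the ratios of dim probe sets most, by construction. Ifih1 and Parp9 were under 2-fold with both the higher floor and the pseudocount, and Ddx58 with the higher floor. Irf7, Oasl1, Oasl2, Ifit1 and Rsad2 were under 2-fold with the pseudocount, while Usp18 stayed above 2-fold wherever it was measured.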
